A study of Mus musculus with 12 samples.

Results

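H3K4me3 was compared between PD-L1 high cells given IFN-gamma and all cells given IFN-gamma, in 1 CUT&Tag library of each, over the 25507 gene windows of the deposited table. All windows were taken, by gene name, and 12754 with a mean level of at least 57.6 normalised tags, the median window over the H3K4me3 libraries, were kept for ratios. The cells were KPC1199, a cultured pancreatic ductal adenocarcinoma line from C57BL/6 mice. PD-L1 high cells and all IFN-gamma treated cells both received 10 ng/ml of the cytokine. The library of all cells without IFN-gamma is given beside them. Each of 4 marks was read in these 3 cell states, which made 12 libraries, 2 of them in the comparison described here. How the PD-L1 high cells were set apart is not given in the sources used here, and the line is a single one. With 1 library on each side there was no replicate, so no test of the conditions was made and no p-value is given, and a difference between the cell states and one between 2 libraries cannot be told apart. Nor can more marked cells be told apart from more mark per cell. Whether the population of all treated cells included PD-L1 high cells is not given in the sources used here.

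CUT&Tag marks DNA beside an antibody-bound histone mark with a tethered transposase. H3K4me3 is laid down by the COMPASS family of methyltransferases around the start sites of genes that are active or poised, and is removed by the KDM5 demethylases. IFN-gamma acts through JAK kinases and STAT factors to induce IRF1, antigen presentation, guanylate-binding GTPases and PD-L1, the checkpoint ligand encoded by Cd274. Cells of one line given the same cytokine can still differ in how much PD-L1 they carry. The comparison asks how promoter marking differs between those with the most and the whole treated population.

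Promoters are shown to let a reader look for interferon-response elements beside the ratios: those of the 3 genes with the highest lower bounds and the 3 with the lowest upper bounds of the ratio among genes with a single listed promoter, and those of Cd274 and of Gbp5, the GTPase with the highest ratio of its list. They come from RefSeq (GRCm38.p6, which is mm10). Each runs 5′ to 3′ from 250 bases before to 50 after a transcript start that RefSeq lists. That start can differ from the outer end of the gene span given with the values, and for Cd274 it lies well inside the span. Capitals mark matches on either strand to GAAANNGAA, the core of the interferon-stimulated response element, or to TTCNNNGAA, the STAT-bound GAS element.
Casp12 (chr9:5345226-5345525, plus strand): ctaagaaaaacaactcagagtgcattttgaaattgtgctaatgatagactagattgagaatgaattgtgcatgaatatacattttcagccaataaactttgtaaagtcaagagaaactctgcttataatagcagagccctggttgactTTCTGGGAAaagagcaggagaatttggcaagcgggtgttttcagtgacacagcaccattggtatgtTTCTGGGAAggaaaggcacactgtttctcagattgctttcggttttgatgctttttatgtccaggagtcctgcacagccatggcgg
Sema3d (chr5:12382916-12383215, plus strand): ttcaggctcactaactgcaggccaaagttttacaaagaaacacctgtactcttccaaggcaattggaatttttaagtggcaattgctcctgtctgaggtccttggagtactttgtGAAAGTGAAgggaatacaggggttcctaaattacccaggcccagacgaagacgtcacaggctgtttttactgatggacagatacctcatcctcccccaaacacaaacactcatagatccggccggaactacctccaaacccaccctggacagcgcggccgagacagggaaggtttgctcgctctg
Pex7 (chr10:19907625-19907924, minus strand): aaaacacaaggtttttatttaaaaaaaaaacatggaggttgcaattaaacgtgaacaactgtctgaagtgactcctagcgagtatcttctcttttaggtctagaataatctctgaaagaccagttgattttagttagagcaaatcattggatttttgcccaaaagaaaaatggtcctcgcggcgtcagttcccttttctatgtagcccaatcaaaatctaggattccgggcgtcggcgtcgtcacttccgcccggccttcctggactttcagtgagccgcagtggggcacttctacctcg
Acy3 (chr19:3986320-3986619, plus strand): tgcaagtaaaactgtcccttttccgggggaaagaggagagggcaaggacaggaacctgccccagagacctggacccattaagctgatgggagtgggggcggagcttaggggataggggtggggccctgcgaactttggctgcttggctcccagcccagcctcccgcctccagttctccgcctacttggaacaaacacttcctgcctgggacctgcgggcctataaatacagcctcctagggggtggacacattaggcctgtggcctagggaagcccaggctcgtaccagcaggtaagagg
Ramp3 (chr11:6658283-6658582, plus strand): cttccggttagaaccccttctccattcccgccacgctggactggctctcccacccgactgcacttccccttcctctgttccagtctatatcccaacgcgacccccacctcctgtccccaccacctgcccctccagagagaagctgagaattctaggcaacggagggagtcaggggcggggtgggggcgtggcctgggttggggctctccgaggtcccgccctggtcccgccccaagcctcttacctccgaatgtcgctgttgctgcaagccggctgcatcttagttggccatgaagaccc
Spats1 (chr17:45474889-45475188, minus strand): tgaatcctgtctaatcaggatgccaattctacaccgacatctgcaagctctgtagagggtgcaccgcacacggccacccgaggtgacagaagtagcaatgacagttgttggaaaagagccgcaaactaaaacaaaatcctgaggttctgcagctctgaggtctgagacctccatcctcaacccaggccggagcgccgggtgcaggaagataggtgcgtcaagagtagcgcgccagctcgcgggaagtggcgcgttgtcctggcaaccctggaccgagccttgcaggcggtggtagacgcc
Cd274 (chr19:29367188-29367487, plus strand): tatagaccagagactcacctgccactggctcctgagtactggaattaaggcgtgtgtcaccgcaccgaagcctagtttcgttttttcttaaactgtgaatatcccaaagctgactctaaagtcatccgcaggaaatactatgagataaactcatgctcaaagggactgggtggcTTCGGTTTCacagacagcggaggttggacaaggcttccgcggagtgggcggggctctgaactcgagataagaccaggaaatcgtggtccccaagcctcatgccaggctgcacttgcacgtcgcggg
Gbp5 (chr3:142496684-142496983, plus strand): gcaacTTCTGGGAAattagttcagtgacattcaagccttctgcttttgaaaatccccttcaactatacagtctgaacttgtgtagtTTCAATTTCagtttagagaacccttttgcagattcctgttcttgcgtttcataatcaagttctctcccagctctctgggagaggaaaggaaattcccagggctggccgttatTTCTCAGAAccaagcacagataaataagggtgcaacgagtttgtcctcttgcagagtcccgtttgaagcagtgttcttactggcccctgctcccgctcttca
Casp12 held 2 GAS matches, Gbp5 held 2 and 1 core of the response element, and Sema3d and Cd274 held 1 such core each. Neither motif was in the promoters of Pex7, Acy3, Ramp3 or Spats1, and TGANTCA, the AP-1 site, was in none of the 8. No match overlapped another. Among all RefSeq promoters of this length, 8.56% held the core of the response element, 8.30% the GAS letters and 7.81% the AP-1 letters. A match of letters is a description and not a bound site.

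The H3K4me3 libraries of the PD-L1 high and all IFN-gamma treated cells were close. At 98.8% of kept windows they lay within 1.5-fold, the 5th and 95th percentiles of the log2 ratio were -0.28 and 0.28, and levels over all windows had a Spearman rho of 0.980 across genes, which are not replicates. Before centring, the median kept window was 0.07 higher on the log2 scale in PD-L1 high cells, and all ratios given are relative to that shift. At least 1.5-fold higher in PD-L1 high cells were 39 windows (0.306%), and 110 were at least 1.5-fold lower (0.862%). At 2-fold, 1 window was higher (0.00784%) and 10 were lower (0.0784%). The size of the excess of lower windows varied with the scaling. With no centring, 81 windows passed 1.5-fold on the higher side and 78 on the lower side. Quantile normalization gave 59 and 92, still more on the lower side. At 2-fold, 3 were higher and 4 lower with no centring, and quantile normalization gave 3 and 6.

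Counting error was set by the tags behind a window. Summed over windows, which can overlap, there were 8928677 tags in PD-L1 high cells, 8519204 in all IFN-gamma treated cells and 7126825 in untreated cells. Exact 95% Clopper-Pearson intervals of the ratio excluded 0 on the upper side at 1376 kept windows (10.8%) and on the lower side at 1541 (12.1%). Without centring those counts were 3122 and 609. The intervals cover counting error only, compare 2 libraries and not 2 conditions, and may understate even that, since reads here carry no molecular identifiers and some may be copies of one molecule.

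**Figure D1:**
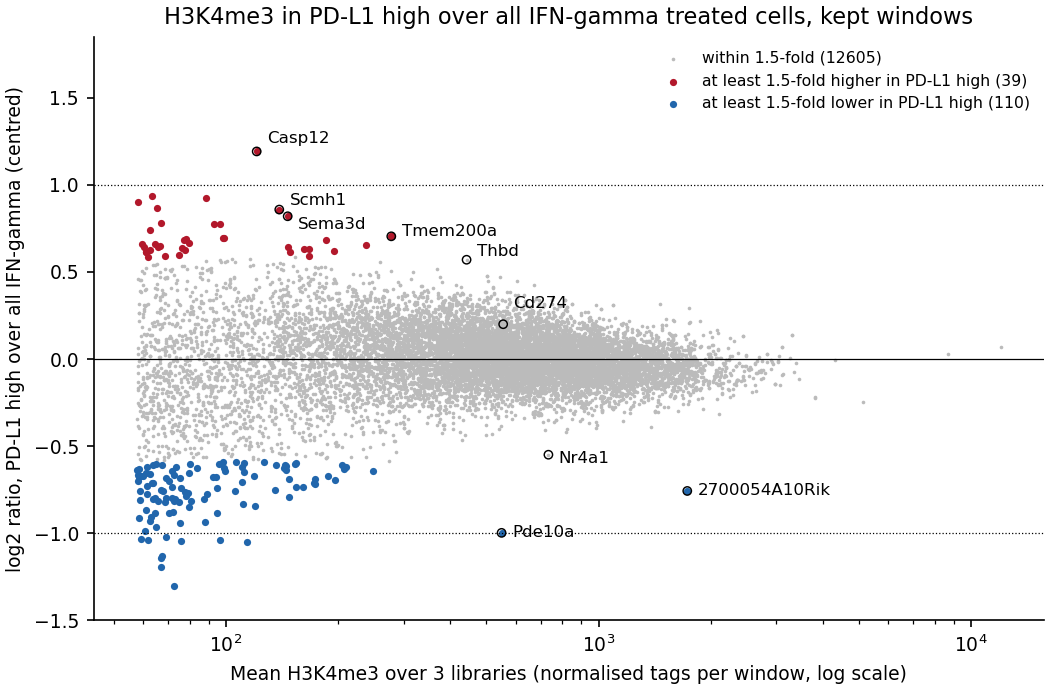
Centred log2 ratio of H3K4me3, PD-L1 high relative to all IFN-gamma treated cells (vertical axis), against the mean level of the 3 H3K4me3 libraries in normalised tags (horizontal, log scale), 1 point per kept window, with 2-fold as dotted lines. The 39 windows at least 1.5-fold higher and the 110 at least 1.5-fold lower sit mostly at the low end of the level axis, with Pde10a and 2700054A10Rik lower at high levels.

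Most windows past 1.5-fold had little H3K4me3. The kept windows were cut into 10 equal bins by level, and the lowest bin held 27 of the 39 higher and 87 of the 110 lower windows. There the ratios had a robust SD of 0.33, against a median counting standard error of 0.23. In the highest bin the SD was 0.09 and the standard error 0.05. The median ratio also moved with level: it was -0.08 in the lowest bin, 0.04 to 0.05 in the next 3 bins and -0.04 in the highest. Intervals lay below 0 at 27.1% of windows of the highest bin and above 0 at 5.88%, so counts of intervals depend on the level of a list. The 39 higher windows had median levels of 97.95 tags in PD-L1 high, 57.1 in all IFN-gamma treated and 85.6 in untreated cells. Those of the 110 lower windows were 48.7, 82.2 and 106 tags. Over all windows of the lowest bin they were 81.9, 79.7 and 94.6 tags, so untreated cells had the highest median there as well. The windows were chosen on the first 2 of these libraries, so their order there is given by the choice.

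**Figure D2:**
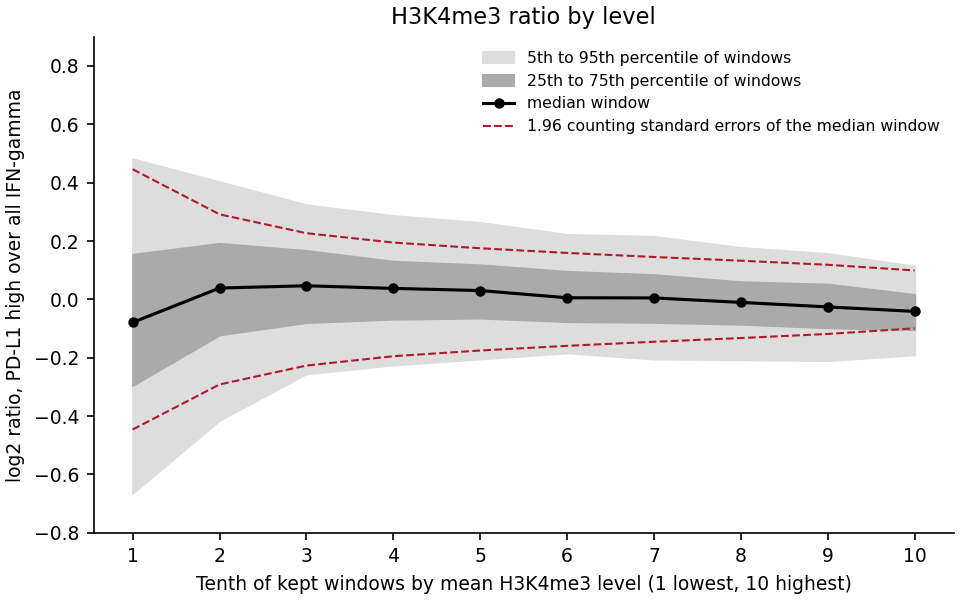
Median, quartiles and 5th to 95th percentile of the log2 ratio of H3K4me3, PD-L1 high relative to all IFN-gamma treated cells, in 10 equal bins of the kept windows by mean level, with 1.96 counting standard errors of the median window as dashed lines. The spread narrows from a robust SD of 0.33 in the lowest bin to 0.09 in the highest, above the counting error in both.

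Casp12, an inflammatory caspase gene (chromosome 9, 5345442 to 5373034), had the highest ratio and the highest lower bound. It held 218 tags in PD-L1 high cells, 89.4 in all IFN-gamma treated cells and 55.8 in untreated cells, a ratio of 1.19 (95% interval 0.85 to 1.58) and 2.28-fold. H3K27Ac, the acetylation of active promoters and enhancers, read in separate libraries, had 116, 53.7 and 32.5 tags there, a ratio of 1.09 (0.68 to 1.66). Both marks were thus highest in PD-L1 high cells and lowest in untreated cells at this gene. The median kept window had the same order in H3K4me3, with 590, 554 and 468 tags. The neighbouring Casp4, another inflammatory caspase gene, had 204 tags of H3K4me3 in PD-L1 high, 143 in all IFN-gamma treated and 75.7 in untreated cells (0.44, 0.13 to 0.76). Its H3K27Ac ratio was 0.18 (-0.26 to 0.64). Casp1, next to it, lay below the level filter, with 27.7, 32.8 and 10.95 tags. The 3 genes follow each other on chromosome 9, and of them Casp12 and Casp4 had ratios above 0.

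Other windows with high lower bounds belonged to genes of different functions. Scmh1, which encodes a Polycomb protein (chromosome 4, 120405150 to 120530200), had 198 tags in PD-L1 high cells, 103 in all IFN-gamma treated cells and 116 in untreated cells (0.86, 0.52 to 1.23). Sema3d, a secreted semaphorin gene (chromosome 5, 12383161 to 12588953), had 216, 115 and 109 tags (0.82, 0.50 to 1.17). At both genes the PD-L1 high library stood apart from the other two, which lay close together. Tmem200a, which encodes a transmembrane protein, had 371, 216 and 247 tags (0.70, 0.46 to 0.96), with values within 5% at Gm9767, a predicted gene that overlaps it. Nupl2, a nucleoporin gene, had 317, 191 and 207 tags (0.65, 0.40 to 0.92), and the zinc finger gene Zfp229 had 236, 139 and 180 (0.68, 0.38 to 1.001). Pex7, the import receptor of peroxisomes, had fewer tags, with 82.1 in PD-L1 high, 39.7 in all IFN-gamma treated and 68.7 in untreated cells (0.94, 0.41 to 1.56). There and at Rn4.5s, a repeated small RNA gene with 116, 57.1 and 91.6 tags (0.93, 0.48 to 1.43), untreated cells lay nearer to PD-L1 high cells than to the other treated library. Reads of Rn4.5s can come from copies elsewhere in the genome. Armcx6, on the X chromosome, had 85.6, 43.7 and 66.7 tags (0.86, 0.36 to 1.45). H3K27Ac ratios were 0.29 (-0.17 to 0.77) at Sema3d, 0.24 (-0.28 to 0.80) at Nupl2, 0.13 (-0.44 to 0.72) at Pex7 and -0.24 (-0.83 to 0.30) at Zfp229. All these intervals held 0. The other genes named here lay below that mark's filter, among them Tmem200a at 0.83 (0.21 to 1.73) and Scmh1 at -0.16 (-1.31 to 0.85).

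Tnfsf10 and Thbd were ordered by state as Casp12 was. Tags are not centred, and the median kept window had this order too (590, 554 and 468 tags), so the order alone does not set these genes apart. Tnfsf10, which encodes the death ligand TRAIL (chromosome 3, 27317077 to 27339665), had 148 tags in PD-L1 high, 81.4 in all IFN-gamma treated and 58.7 in untreated cells (0.78, 0.39 to 1.20). Its H3K27Ac, below that mark's filter, had 55.7, 43.5 and 15.2 tags. Thbd, which encodes thrombomodulin, an inhibitor of coagulation (chromosome 2, 148404471 to 148408188), had 618, 395 and 315 tags (0.57, 0.39 to 0.76), just short of 1.5-fold and at a higher level than any window past 1.5-fold on this side.

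Pde10a, a cyclic nucleotide phosphodiesterase gene (chromosome 17, 8525187 to 8986648), stood out on the lower side because its window held many tags. It had 413 tags in PD-L1 high cells, 786 in all IFN-gamma treated cells and 449 in untreated cells, a ratio of -0.998 (-1.18 to -0.83). All IFN-gamma treated cells were thus the high library, and the other two lay close together. H3K27Ac at Pde10a had 227, 249 and 277 tags (-0.09, -0.36 to 0.18), an interval that held 0. H3K27me3, the mark of PRC2, had 67.4, 133 and 71.1 tags, again highest in all IFN-gamma treated cells. Its ratio there was -0.70, where the median over H3K4me3-kept windows was -0.47. H2A119Ub, the mark of PRC1, had 120, 162 and 98.8 tags. The RIKEN transcript 2700054A10Rik, which lies on the same chromosome and was picked with its values known, had 885, 1423 and 2883 tags of H3K4me3 (-0.76, -0.88 to -0.64), the only window past 1.5-fold in the highest level bin.

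The other windows with the lowest upper bounds had 29.7 to 68.3 tags in PD-L1 high cells, against 63.6 to 134 in all IFN-gamma treated cells. Acy3, an aminoacylase gene (chromosome 19, 3986570 to 3990007), had 67.3, 134 and 139 tags in PD-L1 high, all IFN-gamma treated and untreated cells (-1.05, -1.51 to -0.64). Sp7, the transcription factor osterix of bone-forming cells, had 53.9, 107 and 128 tags (-1.04, -1.56 to -0.58). H3K27Ac at Sp7 had 41.0, 84.1 and 99.4 tags, a ratio of -0.91 (-1.57 to -0.43), so both marks were lowest in PD-L1 high cells there. Ramp3, a receptor activity-modifying protein gene, had 51.5, 101 and 54.8 tags (-1.02, -1.56 to -0.56), and the predicted gene Gm11978, which overlaps it, had the lowest ratio of all kept windows, -1.30 (-1.87 to -0.83), from 45.5, 109 and 63.2 tags. The remaining windows of this group ran from -1.14 at Spats1, a testis gene with 29.7, 64.6 and 107 tags, through Slc2a4rg-ps (-1.13), Ccdc188 (-1.05), the protease gene Prss53 (-1.04) and Ccer2 (-1.04) to Qpct, the glutaminyl cyclase gene, at -0.88 (-1.35 to -0.46). H3K27Ac at Prss53 was 0.44 (-0.05 to 0.999), the opposite sign.

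**Figure D3:**
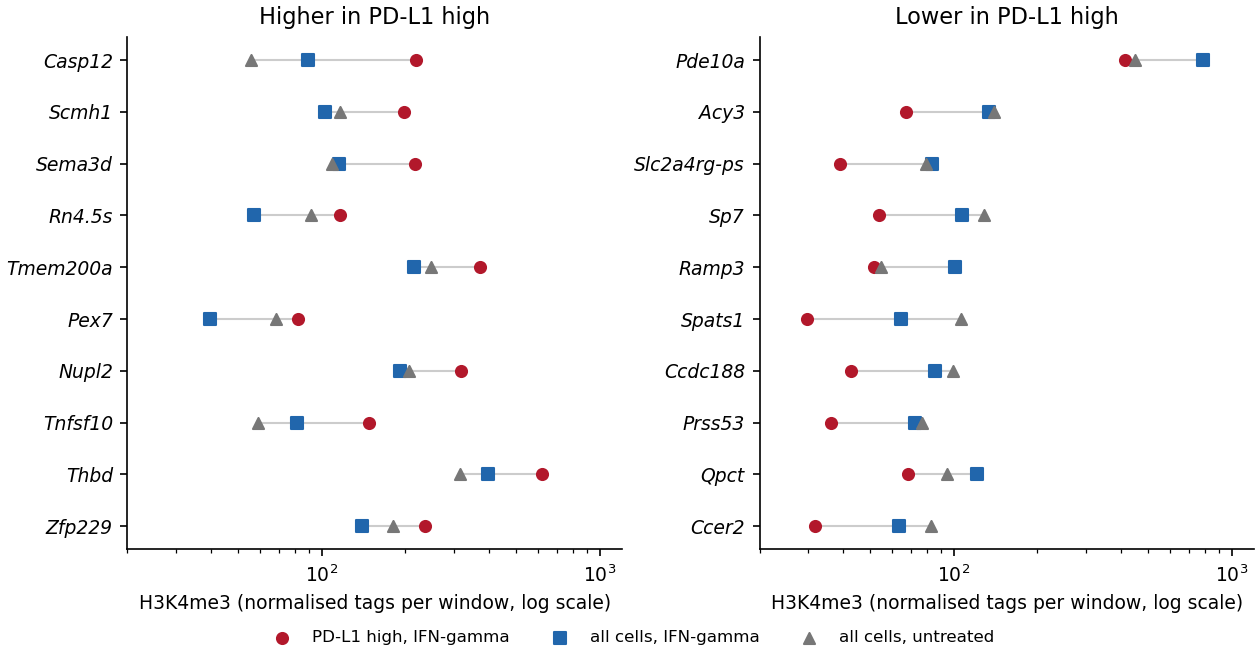
H3K4me3 in normalised tags (log scale) in PD-L1 high, all IFN-gamma treated and untreated cells, 1 point per library, at the 10 windows with the highest lower bound and the 10 with the lowest upper bound of the ratio. Casp12 and Thbd run in the order PD-L1 high, all IFN-gamma treated, untreated, while at Pde10a and Ramp3 the PD-L1 high and untreated points lie together. The first order is also that of the median kept window (590, 554 and 468 tags).

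The windows with the most H3K4me3 in PD-L1 high cells had small ratios. Cdk6, a G1 kinase gene, had 9479, 8845 and 7744 tags in PD-L1 high, all IFN-gamma treated and untreated cells (0.03, -0.02 to 0.07), and Fzd1, a Wnt receptor gene, had 4842, 4622 and 3487 (-0.01, -0.06 to 0.05), a ratio that was 0.07 without centring and 0.12 after quantile normalization. Pisd-ps3, a pseudogene with the highest level of all, was at 0.07 (0.03 to 0.10), or 0.00 after quantile normalization. Rn45s, the ribosomal RNA precursor, which is repeated in the genome, was at -0.24 (-0.30 to -0.19).

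Cd274 itself (chromosome 19, 29362107 to 29388095) held 786 tags in PD-L1 high cells, 650 in all IFN-gamma treated cells and 229 in untreated cells. The ratio of PD-L1 high to all IFN-gamma treated cells was 0.20 (0.05 to 0.35), or 1.15-fold, well inside 1.5-fold, and 0.27 without centring. H3K27Ac had 145, 129 and 50.7 tags (0.22, -0.13 to 0.58). Among 10 checkpoint ligands and modulators above the filter it had the highest ratio, and Ceacam1, a ligand of TIM-3, had the lowest, at -0.27 (-0.53 to -0.0018). Their median was 0.01, just below 0 after quantile normalization, with 5 above and 5 below 0. Pdcd1lg2, which encodes PD-L2, lay below the filter with 3.46, 5.96 and 11.5 tags. The lncRNA A930007I19Rik, on the far side of Pdcd1lg2 and seen only after its values were known, had 1300 tags in PD-L1 high cells, 1013 in all IFN-gamma treated cells and 732 in untreated cells (0.29, 0.17 to 0.41). Jak2 (0.06, -0.06 to 0.18), on the other side, and Plgrkt (0.04, -0.14 to 0.22), which also lies there and whose span overlaps that of Cd274, were near 0.

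The signalling genes of the IFN-gamma response differed little. Of 20 above the filter, 12 were above 0 and 8 below, with a median of 0.06, and none passed 1.5-fold. Of the 20, 4 had an interval above 0 and 2 below, where 10.8% and 12.1% of all kept windows did. Irf1, a transcription factor of the response, was at -0.09 (-0.19 to 0.01) and Socs1, a feedback inhibitor, at 0.01 (-0.09 to 0.10). Cish, a feedback inhibitor of cytokine receptors, had the highest ratio, 0.41 (0.10 to 0.73), from 206, 147 and 195 tags, and Irf7, a regulator of type I interferon genes, the lowest, -0.26 (-0.53 to -0.01). Irf2 (0.15, 0.04 to 0.25) and Stat3 (-0.22, -0.32 to -0.13) had opposite signs.

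The guanylate-binding and immunity-related GTPases, interferon-induced effectors against intracellular microbes, lay above 0 at most members. Of 16 above the filter, 13 lay above 0 and 3 below, with a median of 0.15, where the median of all kept windows is 0. An interval above 0 was found at 5 of the 16 and one below 0 at 1, against 10.8% and 12.1% over all kept windows. The median was 0.23 without centring and 0.13 after quantile normalization, and -0.11 over the 2 members above a stricter level filter. Gbp5 (chromosome 3, 142496934 to 142522344) had 427 tags in PD-L1 high cells, 292 in all IFN-gamma treated cells and 47.8 in untreated cells (0.47, 0.26 to 0.69). Gbp2 had 659, 482 and 110 tags (0.38, 0.21 to 0.55) and Gbp3, in the same cluster, had 659, 490.2 and 67.7 (0.35, 0.18 to 0.53). Gbp10 (0.33, 0.04 to 0.63) and Gbp11 (0.28, 0.0031 to 0.57) followed. Igtp had 1018, 1094 and 153 tags (-0.18, -0.30 to -0.05), so not all members went the same way. The H3K27Ac ratios of 14 members had a median of 0.09, with 10 above 0. Since Gbp genes are paralogs, reads may be split among near-identical copies, and single members are uncertain.

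Antiviral interferon-stimulated genes were spread to both sides. Of 25 above the filter, 14 were above 0 and 11 below, with a median of 0.05. Of the 25, 6 had an interval above 0 and 3 below, against 10.8% and 12.1% over all kept windows, so the lower count was near the background. Ifit2, which binds viral RNA, had 217 tags in PD-L1 high cells, 144 in all IFN-gamma treated cells and 131 in untreated cells (0.51, 0.21 to 0.83), and its H3K27Ac ratio was 0.42 (0.03 to 0.86). Oasl2, an oligoadenylate synthetase-like gene, had 576, 394 and 154 tags (0.47, 0.29 to 0.66). Its paralog Oasl1 was at -0.54 (-0.85 to -0.25), from 159, 221 and 163 tags, and Mx2 at -0.51 (-1.07 to 0.01). Parp14, an ADP-ribosyltransferase gene, was at 0.25 (0.12 to 0.38), and Dtx3l and Parp9, neighbours that act as a ligase complex, were at 0.20 (0.07 to 0.32) and 0.18 (0.06 to 0.31). Below the filter, Ifit1 had 70.2 tags in PD-L1 high, 32.8 in all IFN-gamma treated and 35.8 in untreated cells, and Ifit3 had 64.3, 32.8 and 3.98.

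Genes of antigen presentation were close in the 2 treated libraries. Of 20 MHC class I and processing genes above the filter, 12 were above 0 and 8 below, with a median of 0.01. B2m, the class I light chain, was at 0.05 (-0.07 to 0.17) while H2-K1, a heavy chain gene, was at -0.02 (-0.14 to 0.11). The immunoproteasome subunit gene Psmb10 (-0.25, -0.39 to -0.11) and Calr, the chaperone calreticulin (-0.24, -0.34 to -0.13), were the lowest. For MHC class II, 5 of 14 genes passed the filter, with a median of 0.00. H2-DMb1 was at 0.11 (-0.26 to 0.48) and H2-DMa at -0.06 (-0.14 to 0.01), or 0.01 without centring. Ciita, the class II transactivator, was below the filter, with 6.93 tags in PD-L1 high, 26.8 in all IFN-gamma treated and 15.9 in untreated cells (-1.77, interval without pseudocount -3.47 to -0.79). Nlrc5, the class I transactivator, had 10.4, 9.93 and 22.4 tags.

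Chemokine and cytokine genes lay lower on balance. Of 13 above the filter, 3 were above 0 and 10 below, with a median of -0.09 (-0.01 without centring). Tnfsf10, described above, was the exception on the higher side. Tnf was at -0.53 (-1.14 to 0.03) and Cxcl1, which attracts neutrophils, at -0.38 (-0.58 to -0.18). Cxcl10, which attracts T cells, lay below the filter with 55.4, 49.7 and 63.7 tags in PD-L1 high, all IFN-gamma treated and untreated cells (0.08, -0.49 to 0.66). NF-kB factors and targets had a median of -0.08 (-0.002 without centring) over 12 members, 8 of them below 0. The inhibitor gene Nfkbie had 397, 498 and 329 tags (-0.40, -0.59 to -0.21), and Birc3, an inhibitor of apoptosis, was at -0.38 (-0.74 to -0.04).

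Immediate early and AP-1 genes, which respond first to growth factors and stress, were lower at many of their members, most of them at high levels. Of 25, 10 had an interval below 0 and 0 above, where 12.1% and 10.8% of kept windows did. However, 19 of the 25 lay in the 3 highest level bins, in which 13.5% to 27.1% of all windows had an interval below 0. Their median was -0.05, turning to 0.02 without centring, with 17 below 0 and 8 above. Nr4a1, a nuclear receptor gene (chromosome 15, 101253902 to 101274795), had 662 tags in PD-L1 high cells, 921 in all IFN-gamma treated cells and 618 in untreated cells (-0.55, -0.70 to -0.41). Atf3, a stress-induced transcription factor, had 810, 1030 and 620 tags (-0.42, -0.55 to -0.29). Fosb (-0.26, -0.39 to -0.13), Klf2 (-0.24, -0.37 to -0.12) and Zfp36 (-0.18, -0.29 to -0.08) followed, while Fos (0.04, -0.08 to 0.17) and Jun (-0.01, -0.12 to 0.10) were near 0. The H3K27Ac ratios over the 25 genes had a median of 0.08, with 16 above 0 and 9 below.

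Replication-dependent histone genes, which are used in S phase, lay above 0 at most members in both H3K4me3 and H3K27Ac. Of 34 above the filter, 30 had H3K4me3 ratios above 0 and 4 below, with a median of 0.16, and 0.14 to 0.23 under every other setting. Intervals were above 0 at 11 of the 34 and below 0 at 1, against 10.8% and 12.1% over all kept windows. The H3K27Ac ratios of the same genes, from other libraries, had a median of 0.39, with 31 above 0 and 3 below, against 0.00 over all kept windows. Summed over the list, H3K4me3 came to 11909 tags in PD-L1 high, 10303 in all IFN-gamma treated and 11648 in untreated cells. Summed H3K27Ac came to 6334, 5213 and 5805 tags, so in both marks all IFN-gamma treated cells had the lowest sum. These sums are not centred, and the libraries differ in their typical level. In the same order, the median kept window held 590, 554 and 468 tags of H3K4me3 and 136, 138 and 115 of H3K27Ac, lowest in untreated cells. H3c2 had 149.9, 96.8 and 155 tags of H3K4me3 in PD-L1 high, all IFN-gamma treated and untreated cells (0.55, 0.18 to 0.94), and H2ac4, beside it and with values within 5%, was at 0.51 (0.15 to 0.90). H1f5, a linker histone gene, had 500.1, 393 and 529 tags (0.27, 0.08 to 0.47). These genes stand in clusters, 29 of the 34 on chromosome 13 and 5 on chromosome 3, and 26 lie within 1 window length of another, so they are not separate measurements. Their coding sequences are also near-identical, so reads can be shared among them. Cell cycle genes in general had a median of -0.01 (0.06 without centring) over 33 members, with Cdk2 at 0.29 (0.10 to 0.47).

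**Figure D4:**
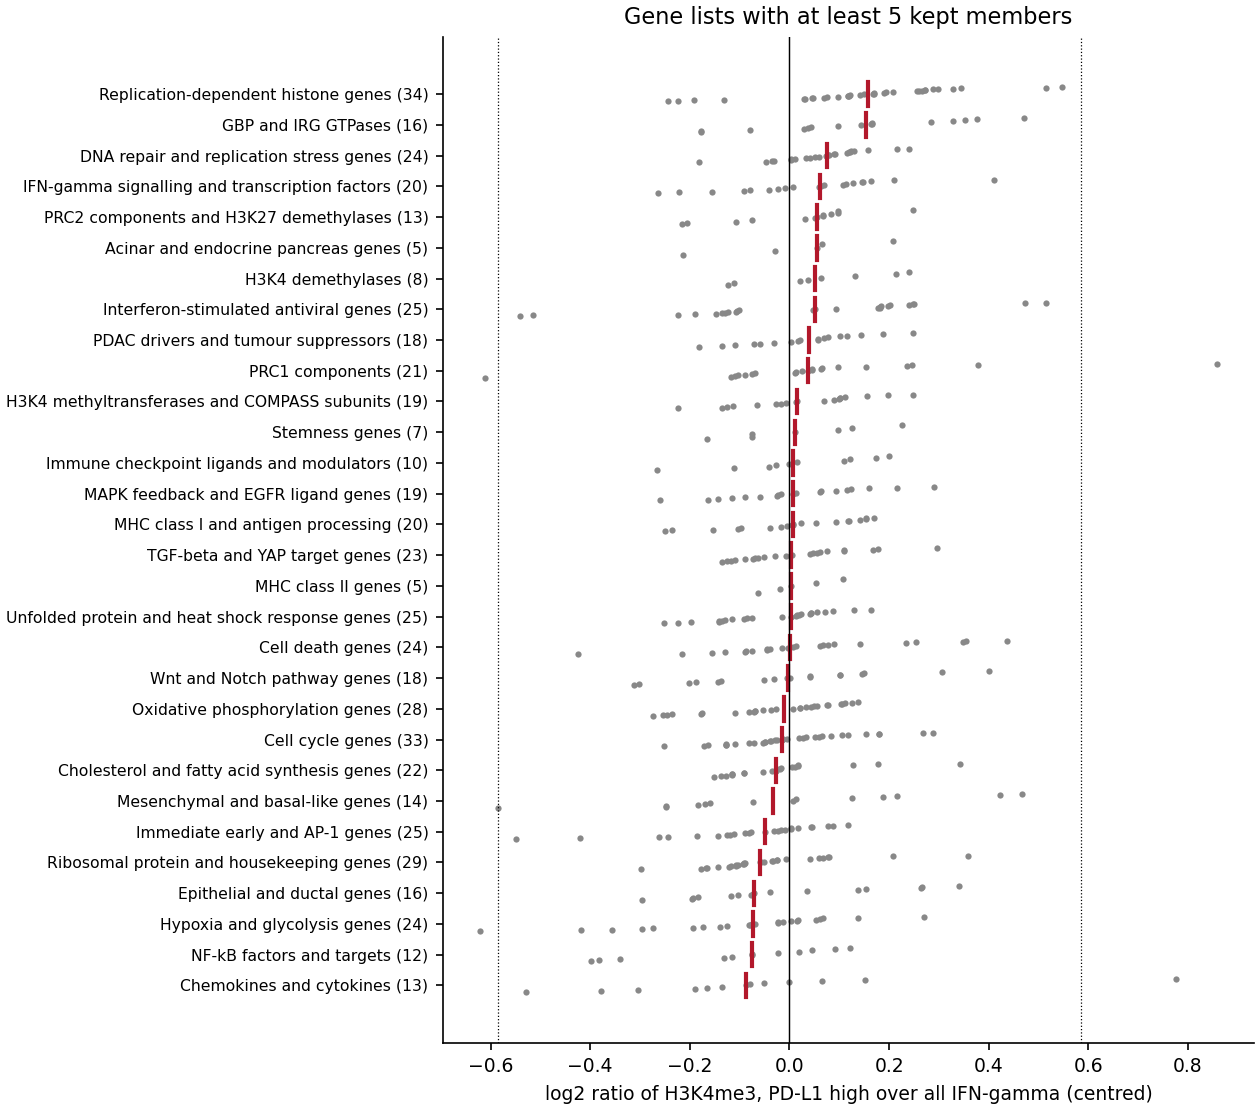
Centred log2 ratio of H3K4me3, PD-L1 high relative to all IFN-gamma treated cells (horizontal axis), for each kept member (grey points) of the 30 lists with at least 5 of them, with the median as a red bar and 1.5-fold as dotted lines. Medians run from 0.16 for replication-dependent histone genes to -0.09 for chemokines and cytokines, and few members pass 1.5-fold.

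DNA repair and replication stress genes lay above 0 at 20 of 24, with a median of 0.08 and 0.05 to 0.15 under every other setting, though intervals excluded 0 at only 2, both above, a share below the 10.8% of all kept windows. These were Mre11a, a nuclease gene of double-strand break repair (0.22, 0.04 to 0.40), and Xpc, a damage sensor of nucleotide excision repair (0.16, 0.02 to 0.30). Ribosomal protein and housekeeping genes lay below 0 at 22 of 29, with 7 intervals below 0 and 2 above and a median of -0.06, turning to 0.01 without centring, where 12.1% of kept windows had an interval below 0 and 10.8% above. Of the 29, 18 lay in the 3 highest level bins, where 13.5% to 27.1% of windows had an interval below 0. Eef2, an elongation factor gene, was at -0.30 (-0.43 to -0.17) and Hprt, on the X chromosome, at 0.36 (0.06 to 0.66). Hypoxia and glycolysis genes lay below 0 at 16 of 24, with a median of -0.07, just above 0 without centring. Of the 24, 6 had an interval below 0 and 1 above, against 12.1% and 10.8% over all kept windows, and 9 lay in the 3 highest level bins. Hif1a, the oxygen-sensitive transcription factor, had 54.4, 80.5 and 85.1 tags in PD-L1 high, all IFN-gamma treated and untreated cells (-0.62, -1.16 to -0.13). Hk2, the first enzyme of glycolysis, had 1200, 1459 and 833 tags (-0.36, -0.47 to -0.25).

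Genes that encode chromatin regulators were mostly near 0. H3K4 methyltransferases and COMPASS subunits had a median of 0.01 over 19 members, with Kdm6a, an H3K27 demethylase gene of COMPASS complexes, at 0.25 (0.08 to 0.41) and Cxxc1, a CpG-binding subunit, at -0.22 (-0.40 to -0.05). Of 8 H3K4 demethylase genes, 6 lay above 0, with Kdm5b at 0.24 (0.09 to 0.39) and Kdm5a at 0.21 (0.07 to 0.36). Over 21 PRC1 genes the median was 0.04, and 2 of them passed 1.5-fold in opposite directions: Scmh1, above, and Phc2, with 107, 156 and 146 tags in PD-L1 high, all IFN-gamma treated and untreated cells (-0.61, -0.99 to -0.26). Over all kept windows 0.306% passed 1.5-fold on the higher side and 0.862% on the lower. Of the 21, 5 had an interval above 0 and 2 below, against 10.8% and 12.1% over all kept windows. Rybp (0.38, 0.17 to 0.60) and Rnf2, the ubiquitin ligase of PRC1 (0.25, 0.08 to 0.41), had intervals above 0, while Bmi1 was at -0.07 (-0.26 to 0.11). The median over 13 PRC2 and H3K27 demethylase genes was 0.05, with Ezh2, its methyltransferase, at 0.05 (-0.08 to 0.18).

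Epithelial and mesenchymal genes did not separate as groups. Epithelial and ductal genes had a median of -0.07, just above 0 without centring, over 16 members, with Tjp1, a tight junction gene, at 0.34 (0.15 to 0.54) and the mucin gene Muc1 at -0.30 (-0.45 to -0.15). Mesenchymal and basal-like genes had a median of -0.03 (0.04 without centring) over 14 members, with 3 intervals above 0 and 5 below, against 10.8% and 12.1% over all kept windows. Within them the related repressors of epithelial genes differed in direction. Snai2 had 856 tags in PD-L1 high cells, 606 in all IFN-gamma treated cells and 548 in untreated cells (0.42, 0.27 to 0.58), and Zeb2 had 201, 138 and 139 (0.47, 0.15 to 0.79). Snai1 had 226, 322 and 276 tags (-0.58, -0.84 to -0.34), though its H3K27Ac ratio was 0.55 (0.17 to 0.995). Vim, the mesenchymal filament gene, was at -0.25 (-0.35 to -0.15).

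Among cell death genes, with 12 above and 12 below 0, Casp4 was the highest and Tnfrsf10b, the receptor for TRAIL, the lowest, with 335, 428 and 373 tags in PD-L1 high, all IFN-gamma treated and untreated cells (-0.42, -0.64 to -0.22). The ligand gene Tnfsf10 and its receptor gene thus had opposite signs. Axin2, a target of Wnt signalling, had 388, 279 and 176 tags (0.40, 0.18 to 0.63), in a Wnt and Notch list with a median of 0.00 (0.07 without centring). Lists for PDAC drivers (0.04), stemness (0.01), MAPK feedback (0.01), TGF-beta and YAP targets (0.00), the unfolded protein response (0.00), oxidative phosphorylation (-0.01), cholesterol and fatty acid synthesis (-0.03) and acinar and endocrine pancreas genes (0.05) had medians within 0.06 of 0. Without centring, the medians of oxidative phosphorylation and of cholesterol and fatty acid synthesis genes became 0.06 and 0.05, and that of the unfolded protein response was -0.01 after quantile normalization. No member of these lists passed 1.5-fold.

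H3K27Ac in the same contrast gave a reading from separate libraries. Over 11718 windows above both filters, the H3K4me3 and H3K27Ac ratios had a Pearson r of 0.19 and a Spearman rho of 0.17 across genes, a weak relation among points that share the 2 cell states. H3K27me3 and H2A119Ub had r of 0.04 each with H3K4me3. At the windows at least 1.5-fold lower in H3K4me3, the median H3K27Ac ratio was -0.21, with 74 of 97 below 0. In the lowest bin of windows by H3K4me3 level, which holds most of them, it was -0.09, with 461 of 753 below 0. Over all kept windows it was 0.00, with 5808 of 11718 below 0. At the windows at least 1.5-fold higher the median H3K27Ac ratio was 0.10, with 7 of 12 above 0, Casp12 first among them. That is 58.3%, against 50.4% over all kept windows.

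**Figure D5:**
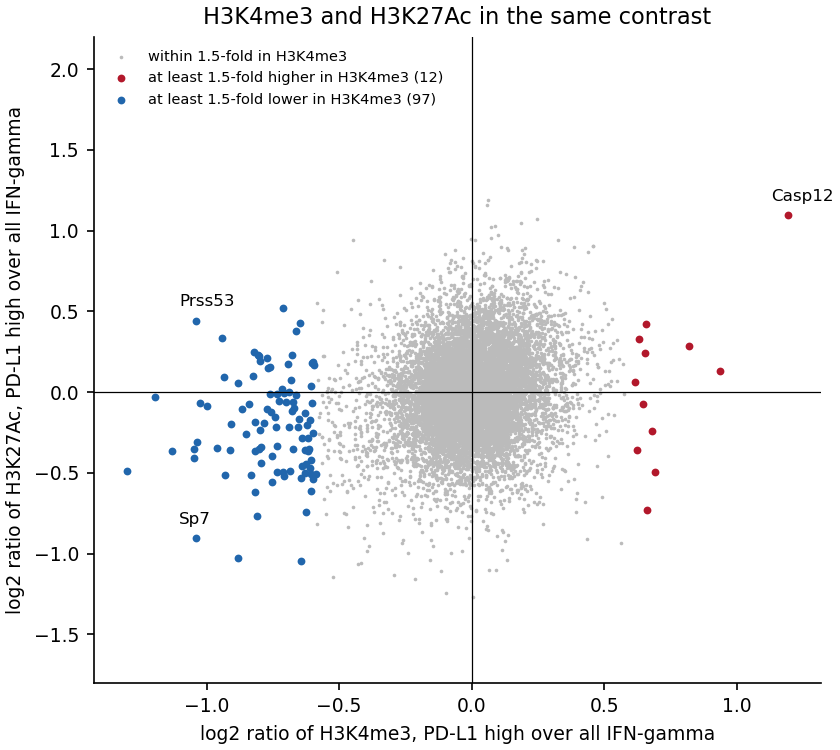
Centred log2 ratios of H3K27Ac (vertical axis) against H3K4me3 (horizontal axis), both PD-L1 high relative to all IFN-gamma treated cells, for 11718 windows above both filters. Of the 97 windows at least 1.5-fold lower in H3K4me3, 74 lie below 0 in H3K27Ac, as do 5808 of all 11718, and Casp12 lies high in both.

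Chromosome medians ran from -0.04 on chromosome 15 to 0.04 on chromosome 19. Of the windows at least 1.5-fold lower, 18 lay on chromosome 11, among 1186 kept windows there (1.52%), and 9 on chromosome 15, among 533 (1.69%), where the share over all kept windows was 0.862%. Chromosomes 16 (1.49%), 17 (1.28%) and 10 (1.27%) were close behind, and chromosomes 6 and 13 had 0 of 580 and 0 of 487. Of the higher windows, 7 lay on chromosome 3, among 621 (1.13%), and 6 on chromosome 10, among 632 (0.949%), against 0.306% over all. These are counts of few windows. Over 9299 protein-coding kept windows with a RefSeq promoter, which is 81.0% of them, median ratios in 5 equal bins by CpG observed over expected ran from -0.01 in the poorest to 0.01 in the richest. Among these windows, the share at least 1.5-fold lower was 2.15% (40 of 1860) in the CpG-poorest bin. It was 0.484%, 0.215% and 0.0538% in the next 3 bins and 0.0538% (1 of 1860) in the richest. The share at least 1.5-fold higher was 0.591% in the poorest and 0.108% in the richest bin. Level moves with composition, and the part of each was not tested. The 2 lowest level bins together were also cut into 5 by CpG. Median ratios there were -0.13 in the poorest and 0.06 in the richest. The share at least 1.5-fold lower was 8.81% (29 of 329) in the poorest and 0.612% (2 of 327) in the richest. It was 2.43%, 1.82% and 2.42% in the 3 between. At least 1.5-fold higher were 0.912% in the poorest and 1.83% in the richest. A promoter was listed for only 76.0% and 76.7% of protein-coding windows in these level bins, so the rest are not described. Only 75% of the higher and 73.3% of the lower protein-coding windows had a promoter, so the composition or motifs of those sets as a whole cannot be checked. The shares by CpG bin rest on the same windows with a promoter. They carry that limit and describe those windows alone.

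The labelled cell type was compared with its markers. In the PD-L1 high and all IFN-gamma treated libraries, the keratin genes Krt8 (2005 and 2004 tags), Krt18 (1380 and 1488) and Krt19 (1470 and 1474) were high. Not all epithelial genes were: of 21 epithelial and ductal genes 16 passed the filter, and 1 held under 3 tags in PD-L1 high cells. Of 22 leukocyte markers 3 passed the filter, and Ptprc, the pan-leukocyte marker, had 0.99 tags in PD-L1 high cells and 0 in all IFN-gamma treated cells. Their summed level was 1390 tags in PD-L1 high, 1431 in all IFN-gamma treated and 1387 in untreated cells, most of it at Cd14 and Cd68. Of 20 fibroblast and endothelial markers 4 passed, with sums of 890, 805 and 944 tags, and Col1a2, Dcn and Lum were at 0 in both treated libraries. Among those that passed, Col1a1 had 145, 110.2 and 159 tags in PD-L1 high, all IFN-gamma treated and untreated cells (0.32, -0.04 to 0.69) and Col3a1 had 111, 83.4 and 133 (0.33, -0.08 to 0.77). H3K27Ac at Col3a1 had a ratio of 0.74 (0.23 to 1.40) and at Col1a1 one of -0.31 (-0.79 to 0.13). The other two, Pdgfra and Pdgfrb, were at -0.01 (-0.22 to 0.20) and -0.08 (-0.40 to 0.23). The part of such markers in the results was not tested. A window at 0 allows up to 2.97 tags in PD-L1 high cells and 2.98 in all IFN-gamma treated cells.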

How the data were processed

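CUT&Tag signal was read in 12 libraries of KPC1199 cells, 4 marks in 3 cell states with 1 library each. The deposited values are a normalised signal per gene and library. Per the submitters' processing notes the authors used the mm10 build, Bowtie2 2.4.2, MACS2 2.2.7.1 and HOMER, with neither role nor order stated. No source used here gives the window, the removal of duplicates or the scaling. In each library, 100% of the values fell within 10% of whole multiples of 1 fitted step. That share is the same for any multiplier, so it shows neither the window nor the tags in a step. With a multiplier of 6000 and the step taken as 0.5 tags, 1 tag came to 0.989 in the H3K4me3 library of PD-L1 high cells. In that of all IFN-gamma treated cells it came to 0.993. The values were read as normalised tags per window of 6000 bp, an inference on which tag counts and counting intervals rest. Library depth beyond the windows is unknown. Neighbouring genes can share a window, and 25507 windows carry 25450 names.

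From these, log2 ratios, PD-L1 high relative to all IFN-gamma treated cells, were computed after adding 1.99 tags, the 10th percentile of values above 0, and centred on the median kept window. A pseudocount understates differences of low windows. The level filter is the 50th percentile of the mean of the 3 H3K4me3 libraries. Other marks were treated likewise with pseudocounts and filters of their own. Intervals at 95% are Clopper-Pearson intervals of the recovered tags, centred, without pseudocount. They limit the precision to counting error. Calls are folds of 1.5 and 2. The 32 gene lists, the genes named and the thresholds were chosen with earlier results of these data known. Named are the 10 windows with the highest lower and the 10 with the lowest upper bound, the 5 highest and 5 lowest ratios, the 5 highest levels, 13 genes of the PD-L1, interferon and Polycomb systems, and per list the 2 largest ratios with up to 2 more. Predicted genes, RIKEN clones, microRNAs and small nucleolar RNAs were skipped, and a few genes that the rule names are not reported here. Further list members, such as Gbp10, Parp14 and Zfp36, and the neighbours of Casp12 and Cd274 were chosen after their values were seen. Gene coordinates and names come from RefSeq (GRCm38.p6). The ratio code was tested on simulated data. Alternatives were no centring, quantile normalization, pseudocounts of 1 and 10 tags, no level filter, one at the 75th percentile, and collapsing identical windows. Python 3.11.15, numpy 2.4.6, scipy 1.17.1 and pandas 2.3.3 were used.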

Additional observations from a re-analysis of the deposited data

How the results depend on the processing

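With 1 library a side, no replicate could be left out. No paired analysis was possible because each group has 1 library. Windows at least 2-fold higher in PD-L1 high cells numbered 3 without centring, 3 after quantile normalization, 535 without the level filter and 0 with the filter at the 75th percentile, against 1. Windows at least 2-fold lower numbered 4, 6, 1453 and 0 in the same order, and 3 with a pseudocount of 10 tags, against 10. At 1.5-fold higher the counts were 81, 59, 1558 and 0, and 24 with a pseudocount of 10 tags, against 39, and at 1.5-fold lower 3252 without the level filter and 2 with the stricter one, against 110. Counting intervals above 0, with alternatives added after seeing the data, were 3122 without centring, 3068 without the filter and 824 with the stricter one, against 1376. Those below 0 were 609 without centring, 1112 without the filter and 819 with the stricter one, against 1541. The cause was not tested beyond the settings' own construction, since the filters change which windows are counted and both they and centring move the zero. The shift removed was 0.009 without the level filter and 0.058 with the stricter one, against 0.074. Collapsed windows kept all these counts within 1.5 times, as did a pseudocount of 1 tag for the 4 counts by fold, while the intervals use no pseudocount. No named ratio past 1.5-fold changed sign under the settings run. Of 98 named ratios, 6 moved beyond their counting interval without centring, 5 without the level filter and 4 after quantile normalization, among them Pisd-ps3, Fzd1 and Rn45s at the highest levels. Of 32 list medians, 12 moved beyond the order-statistic interval of their own members without centring and 12 without the level filter. Windows below the filter average under 57.6 tags, so single ratios there are set largely by counting error.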

Other observations

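Gene families taken by name after their values were seen gave 2 further descriptions. Their ratios are centred, and the shift removed, 0.07, is of the size of most of their medians. No family was recomputed without centring. After centring, microRNA windows lay lower in PD-L1 high cells than in all IFN-gamma treated cells. Of 332 above the filter, 227 were below 0, with a median log2 ratio of -0.09. Of the 332, 21 (6.33%) were at least 1.5-fold lower, against 0.862% of all kept windows. Many had low levels, with 105 in the lowest of 10 equal level bins of kept windows. There their median was -0.26, with 83 below 0 and 16 (15.2%) at least 1.5-fold lower, against -0.08 and 6.82% over all 1276 windows of that bin. Mir6977 had 27.7 tags in PD-L1 high, 62.6 in all IFN-gamma treated and 111 in untreated cells (-1.19, -1.95 to -0.59). Mir126a and Mir126b, which overlap, had ratios of -0.62 and -0.63. On the higher side stood Mir15b (0.63, 0.31 to 0.97) and Mir16-2 (0.64, 0.30 to 1.01), which lie together on chromosome 3. A microRNA window covers the flanking host gene as well, so these values do not belong to the microRNA alone.

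Small nucleolar RNA windows were below 0 at 67 of 81, with a median of -0.10 and none past 1.5-fold. Most lie in introns of other genes. The windows of Rpl and Rps ribosomal protein genes were below 0 at 48 of 75, with a median of -0.03, and centrosomal Cep genes were above 0 at 27 of 35, with a median of 0.07. No olfactory receptor window passed the filter, of 1135. Below the filter lay 12753 windows, and those named next were picked for the lowest upper bounds of the ratio among them. That their intervals lay below 0 is thus given by the choice. Timp4, an inhibitor of metalloproteinases, had 0.99 tags in PD-L1 high, 19.9 in all IFN-gamma treated and 11.95 in untreated cells, and the keratin gene Krt1 had 0, 14.9 and 15.4.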
